A study of Mus musculus with 12 samples.

Results

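The genes described here encode the soluble glutathione S-transferases (GST), the UDP-glucuronosyltransferases (UGT) and the sulfotransferases (SULT), the main conjugating enzymes of phase II detoxification. They were chosen by name: every protein-coding gene of the count table whose mouse symbol begins with Gsta, Gstk, Gstm, Gsto, Gstp, Gstt, Gstz, Ugt or Sult followed by a digit. This gave 67 of the 56065 genes in the table, 24 GST, 22 UGT and 21 SULT genes, among 21599 protein-coding genes. Their RNA was measured by bulk RNA-sequencing in the submandibular gland (SMG) of mice aged 8 weeks. There were 4 groups of 3 mice, each library from 1 mouse: females of C57BL/6J (wild type), males of the same strain, and both sexes of C57BL/6J-*Pou2f3*-/-, called knockout below, a germline mutant that lacks the transcription factor that defines tuft cells (TCs). All 4 groups have the C57BL/6J background, and no treatment is named for any of them. The comparisons ask which of these enzymes depend on the sex of the gland, and which differ in a gland without TCs.

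Phase II enzymes join a water-soluble group to drugs, hormones, bilirubin and reactive metabolites so that they can be excreted. GSTs add glutathione to electrophiles, UGTs work in the endoplasmic reticulum with UDP-glucuronic acid (UGT8 with UDP-galactose), and SULTs move sulfate from PAPS, the activated sulfate donor, onto phenols, amines and steroids. The mouse SMG is one of the most sexually dimorphic glands: the granular convoluted tubule (GCT), a duct segment full of kallikreins and growth factors, grows under androgen and is larger in males.

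Total counts per library ranged from 47031917 to 67881902 after rounding. Levels are CPM, counts scaled to library size with TMM adjustment, and levels of different genes are compared only per kb of transcript. The TMM factors of the 6 male libraries (1.04 to 1.45) exceeded those of female knockout (0.902 to 1.03), and these exceeded the factors of female wild type (0.625 to 0.759). The detection limit, the level of 3 counts that a count of 0 still allows, was 0.0399 to 0.0782 CPM depending on the library, and it covers counting error only. *Pou2f3* itself had 0 to 2 counts in female wild type and 0 to 10 in male wild type. Female knockout libraries all had 0 and male knockout libraries 0 to 3. Of 7 TC markers, 2 had enough counts for the edgeR test described below. *Dclk1*, at 477 to 1198 counts, changed by 0.19 (log2) in female and 0.11 in male knockout (adjusted p of 0.22 and 0.80). *Avil*, at 2 to 55 counts, was higher in female knockout (2.06, adjusted p = 0.014) but not in male knockout (-0.17, adjusted p = 0.94). Whole-gland RNA at this depth could therefore not check the genotype labels. Of the 8 acinar markers 5 were abundant in every library (*Prol1* 412582 to 2028833 counts), and *Smr3a*, *Bpifa2* and *Dcpp1* were near 0 in some libraries and high in others. The 7 GCT markers summed to 920 to 2441 CPM in females and 68859 to 125969 CPM in males. A few libraries stood apart. Female knockout 2 held genes of the small intestine (*Alpi* 188 counts, 0 in the other libraries), male wild type 3 held genes of brain neurons (462 counts summed over 8 genes, at most 7 elsewhere), and male wild type 3 and female knockout 3 held 518166 and 228637 counts of *Muc19*, a mucin of the neighbouring sublingual gland, against 111 to 7767 elsewhere. Male knockout 2 held 51867 counts of *Smr3a* and 125303 of *Bpifa2*, secretory genes on the acinar marker list, male wild type 3 held 3706 and 35484, and the other libraries 0 to 388 and 6 to 2611. The 6 adipocyte markers summed to 1681 counts in female wild type 3, 2096 in male knockout 2 and 1106 in male knockout 3, against 108 to 308 elsewhere, and the macrophage marker *Adgre1* had 2233 counts in female wild type 1, against 256 to 681 elsewhere. Counts of members are therefore also given with libraries of this kind left out.

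Detection divided the superfamilies. Of the 67 genes, 27 had enough counts to be tested: 17 of 24 GST, 5 of 22 UGT and 5 of 21 SULT genes. Another 18 had a count of 0 in all 12 libraries. These were *Sult2a1* to *Sult2a8*, the hydroxysteroid sulfotransferases known from liver, *Sult3a1*, *Sult3a2* and *Sult6b1*, and *Ugt1a8*, *Ugt1a10*, *Ugt2a1*, *Ugt2a2*, *Ugt2b37*, *Ugt2b38* and *Ugt3a2*. A further 7 never exceeded 3 counts: *Gsta5*, *Gstp3*, *Gstt4*, *Ugt2b1*, *Ugt2b35*, *Ugt2b36* and *Ugt3a1*. The remaining 15 were low and were not tested. None of the 10 UGT2 genes, the family that conjugates steroids and bile acids in liver, was tested, and none of the 9 SULT2 genes. *Sult2b1*, which sulfates cholesterol and is the only SULT2 gene with any count, had 2 to 11 counts. No GST gene was at 0 in all 12 libraries.

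Of the 15 low genes, 9 exceeded 3 counts in a single library, female knockout 2. *Ugt2b34* had 43 counts there and at most 1 in any of the other 11 libraries. *Sult6b2* had 32 counts there and 0 elsewhere. *Gstm3* had 15, *Sult1b1* 14, *Ugt2b5* 8, *Gsta1* 7, *Ugt1a9* 6, *Sult1c2* 5 and *Ugt2a3* 4 counts there, and at most 3 elsewhere. The same library held *Alpi*, intestinal alkaline phosphatase, at 188 counts, *Apoa4* at 167, *Muc17* at 295 and *Cdh17* at 68. The part of the intestinal RNA in these member counts was not tested, and none of the 9 genes is read as expressed in the gland. *Gsta13* had 5 counts in male wild type 3 and 3 or fewer elsewhere. The other low genes were spread over several libraries: *Gstm6* (1 to 10 counts), *Sult2b1*, *Sult4a1* (0 to 17), *Ugt1a2* (0 to 11) and *Ugt1a6b* (0 to 6).

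**Figure D1:**
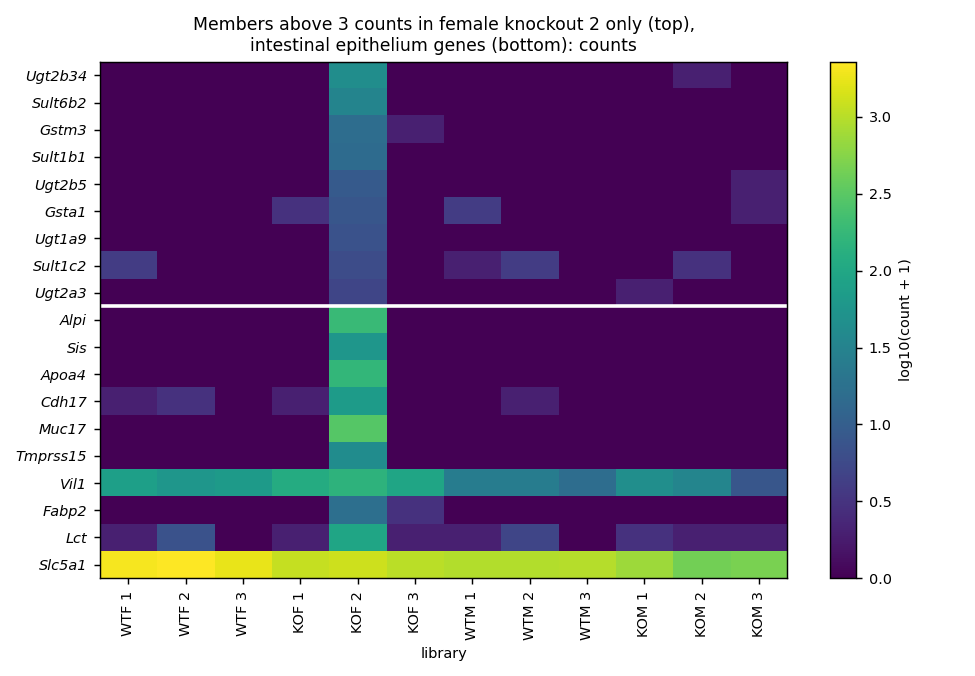
Heat map of counts on a log10(count + 1) colour scale for the 9 low members that exceeded 3 counts in female knockout 2 only (above the white line) and for 10 genes of the small intestine (below it), in each of the 12 libraries (WT wild type, KO knockout, F female, M male). The 9 members and 8 of the intestinal genes stand out in KOF 2, where *Ugt2b34* had 43 counts; *Vil1* and *Slc5a1* were present in all libraries.

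Per kb of transcript, the GST superfamily was the most abundant in every library. Its summed level was 105 ± 6.6 CPM per kb (SD, n = 3) in female wild type, 79.9 ± 8.28 in female knockout, 102 ± 8.45 in male wild type and 112 ± 3.2 in male knockout. The leading enzyme differed by sex. In female wild type the mu class genes *Gstm2* (20.6 ± 2.31 CPM per kb) and *Gstm1* (18.9 ± 7.32) led, followed by *Gstp1* (16.4 ± 2.97) and *Gstt3* (11.1 ± 1.78); the first 3 did not differ beyond their spread. In male wild type *Gsto1* led with 30.7 ± 4.71 CPM per kb, 30% of the GST total, followed by *Gstp1* (16.1 ± 2.67), *Gstm1* (12.4 ± 0.508), *Gstm2* (9.33 ± 0.361) and *Gstk1* (9.18 ± 0.741). *Gsto1* also led in male knockout, at 38.7 ± 4.73 CPM per kb and 34.6% of the GST total.

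The SULT total was 3.37 ± 0.556 CPM per kb in female wild type and 3.8 ± 0.511 in female knockout, against 22.7 ± 2.11 in male wild type and 22.5 ± 3.84 in male knockout. *Sult1e1* made up 75% of it in male wild type and 67.6% in male knockout. In females *Sult1a1* held the largest part, with 64% in wild type and 58.3% in knockout. The UGT total was the smallest of the 3 in males, at 2.44 ± 0.122 in wild type and 1.96 ± 0.173 in knockout, and stood at 3.88 ± 0.523 and 2.75 ± 0.801 CPM per kb in wild-type and knockout females. *Ugt8a* held 41.9% to 64.4% of the UGT total over the 4 groups, ahead of *Ugt1a6a* (17.1% to 38.2%).

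**Figure D2:**
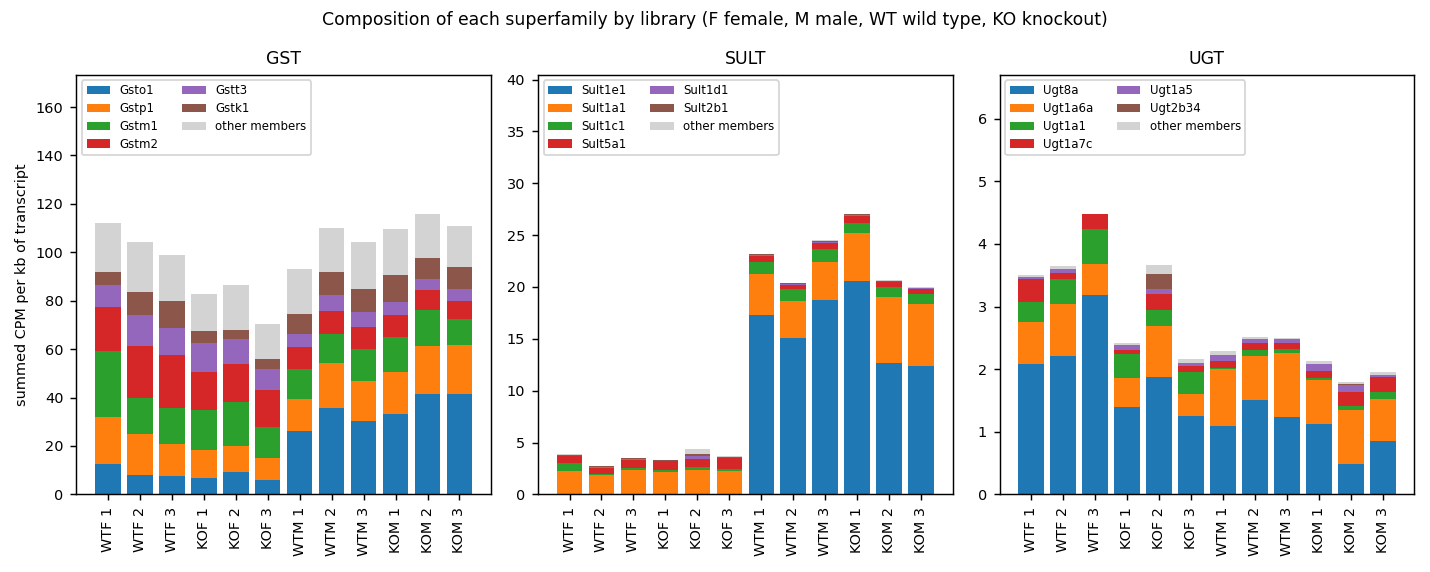
Stacked bars of CPM per kb of transcript in each library for the 24 GST, 21 SULT and 22 UGT genes, with the 6 most abundant members of each superfamily in colour and the others in grey; the vertical scales differ. The blue segment of *Gsto1* is larger in all 6 male libraries, and *Sult1e1* fills most of the SULT bar in males and is not visible in females.

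In wild type 12 of the 27 tested members were called between males and females (44.4%), against 36.5% of all 17893 genes tested. A call is a Benjamini-Hochberg adjusted p under 0.05, over all genes, in the quasi-likelihood test of edgeR. Of the 12, 5 were higher in males, where the share over all genes was 20.5%, and 7 were lower, where it was 16%. In knockout 16 of 27 were called (59.3%), 9 higher and 7 lower, against 43.5% of all genes, 23.2% higher and 20.3% lower. *Sult1e1*, called in both genotypes, and *Gsta2*, called in knockout, passed the low-count filter only through the male libraries, where they were high. Their place among the tested members thus depends on the groups compared. The median log2 fold change of male against female was -0.26 over the members and 0.06 over all genes in wild type, and 0.26 and -0.02 in knockout. These 2 contrasts share no library, but they come from 1 model of all 12 libraries with a common estimate of spread, so their calls are not independent. The same 10 members were called in both, each in the same direction (37%), as were 18.1% of all 17893 genes: *Sult1e1*, *Sult1a1*, *Sult1c1*, *Gsto1* and *Gstz1* were higher in males, and *Gstm2*, *Gstt1*, *Gstt3*, *Ugt1a1* and *Ugt8a* were lower. Without male knockout 2, 11 members were called in wild type and 14 in knockout, as were 6274 and 6510 of 18538 genes. The knockout median over the members was then 0.09. That median was 0.49 without female knockout 2. With a low-count filter it lay between 0.09 and 0.51 in every alternative. With no such filter it was -0.38 over the 49 members that could be fitted (-0.42 by DESeq2), many of them near the detection limit. Its sign thus depends on which members are included. Without both libraries rich in *Muc19*, 9 and 15 members were called, as were 4609 and 5810 of 18355 genes, and without both that held intestinal or brain RNA 10 and 15 members, as were 4989 and 6978 of 18224 genes.

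*Sult1e1*, estrogen sulfotransferase, which inactivates estradiol by sulfation, had the clearest difference. It had 1 count in each female wild-type library and 1, 0 and 2 counts in the female knockout libraries. Male wild-type libraries had 1626, 1332 and 1642 counts, and male knockout libraries 1593, 981 and 989. Female libraries were all at or under the detection limit, and the lowest male library had 15.5 CPM. Against 3 counts in each female library, its mean level was at least 314-fold higher in wild-type males (adjusted p = 6.0e-09) and at least 327-fold higher in knockout males (adjusted p = 6.7e-09). The gene lies at chr5:87723828-87739461 on the minus strand (GRCm39), beside *Sult1d1*, a sulfotransferase of catecholamines, at chr5:87702504-87716933 on the same strand. *Sult1d1* had 3 to 39 counts in all groups and was not called by sex. No 31-base word of the *Sult1e1* transcript occurs in another gene's transcripts, so its counts could be assigned without a near copy.

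*Sult1a1*, which sulfates small phenols, had 2.94, 2.42 and 3.08 CPM in female wild type and 5.11, 4.67 and 4.87 in male wild type. In knockout it had 2.76, 3.06 and 2.87 CPM in females and 6.07, 8.21 and 7.79 in males. All 6 male libraries lay above all 6 female ones, with log2 fold changes of 0.80 ± 0.146 (SE) in wild type and 1.34 ± 0.146 in knockout. *Sult1c1* had 60, 5 and 12 counts in female wild type and 142, 124 and 139 in male wild type, and rose by 1.79 ± 0.528 on the log2 scale (adjusted p = 0.018). Female wild type 1 was the highest of the females, and the groups did not overlap. Without female wild type 3 the log2 fold change was 1.53 and was not called (adjusted p = 0.067), and without female wild type 1 it was 3.12. In knockout *Sult1c1* was higher in males by 1.97 ± 0.540 (adjusted p = 0.010), with 15, 29 and 18 counts in females and 90, 101 and 99 in males. *Sult5a1* was called in knockout only (-0.80 ± 0.205), and its sex differences in the 2 genotypes were not shown to differ (interaction -0.49, adjusted p = 0.23).

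*Gsto1*, an omega class GST that reduces dehydroascorbate and thiol adducts, had 24.2, 15.5 and 14.1 CPM in female wild type and 49.9, 67.8 and 57.9 in male wild type. In knockout it had 12.8, 17.4 and 11.3 CPM in females and 63.4, 78.8 and 79.1 in males. No female library reached a male one, and the log2 fold changes were 1.70 ± 0.208 in wild type (adjusted p = 3.9e-05) and 2.41 ± 0.213 in knockout (adjusted p = 2.7e-06). The interaction, 0.71 ± 0.288, was not called (adjusted p = 0.085) but was called by DESeq2 (adjusted p = 0.032). It was also called by edgeR with no low-count filter (0.72, adjusted p = 0.033). The same held without female knockout 2 (0.99, adjusted p = 0.022) or female wild type 3 (0.92, adjusted p = 0.042). Its neighbour *Gsto2* begins downstream of it on the same strand of chromosome 19 (chr19:47842686-47853229 for *Gsto1*, chr19:47853943-47874763 for *Gsto2*). *Gsto2* was lower in wild-type males, at 0.173, 0.128 and 0.200 CPM against 0.428, 0.494 and 0.313 in females (-1.30 ± 0.383, adjusted p = 0.018), on 9 to 22 counts a library. Its call was lost in 5 of 23 alternatives, among them leaving out female wild type 2, male wild type 1 or male wild type 2 (adjusted p of 0.066, 0.054 and 0.060).

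*Gstz1*, maleylacetoacetate isomerase of tyrosine breakdown, was higher in males by 0.38 ± 0.0908 in wild type and 0.41 ± 0.0907 in knockout. Its levels were 10.6, 10.4 and 11.1 CPM in wild-type females and 14.8, 13.1 and 13.9 in wild-type males. With the authors' own normalization factors these differences shrank to 0.17 and 0.19 and were not called (adjusted p of 0.34 and 0.27).

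Among the members lower in males, *Gstm2*, a mu class GST, had 19.5, 23.6 and 23.9 CPM in female wild type and 9.99, 10.5 and 9.79 in male wild type. In knockout it had 17.0, 17.2 and 16.6 CPM in females and 9.67, 8.94 and 8 in males. All female libraries lay above all male ones, and the log2 fold changes were -1.14 ± 0.104 and -0.93 ± 0.104. Of its 31-base words, 39.2% occur in other genes, mostly the annotated *Gm6665*, so part of its reads could be split between them. *Gstt3*, a theta class GST, had 17.3 to 24.0 CPM in female and 10.4 to 12.1 in male wild type (-0.88 ± 0.145), and 15.8 to 22.1 against 8.69 to 10.6 in knockout (-0.99 ± 0.145). *Gstt1*, beside it on chromosome 10 and known for conjugating halogenated methanes, was lower by 0.82 in wild type (-0.82 ± 0.204) and by 0.57 in knockout (-0.57 ± 0.200, adjusted p = 0.035). In knockout its groups overlapped, at 3.37 to 6.43 CPM in females and 3.16 to 3.47 in males, and without female knockout 2 the log2 fold change was -0.27 (adjusted p = 0.28). Leaving out female wild type 2 or 3, female knockout 1 or any male knockout library also ended that call, with an adjusted p of 0.061 to 0.11.

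*Ugt1a1*, the bilirubin-conjugating UGT, had 54, 57 and 69 counts in female wild type and 2, 23 and 15 in male wild type. Female knockout libraries had 62, 48 and 51 counts and male knockout libraries 5, 14 and 21. Every male library lay below every female one, and the log2 fold changes were -2.85 ± 0.612 and -2.28 ± 0.607 (adjusted p of 0.0028 and 0.0087). The size in wild type depended on the low male counts: it was -3.51 without male wild type 2 and -2.33 without male wild type 1, called in both. The UGT1 genes have separate first exons and share later exons. Of the 31-base words of *Ugt1a1*, 71.5% occur in the others, so Salmon divided shared reads among them by estimation. Summed over the 9 UGT1 genes, wild-type females had 4.48 ± 0.271 CPM (SD) and wild-type males 3.77 ± 0.402. In knockout the sums were 3.67 ± 0.939 in females and 3.67 ± 0.513 in males. The sums were not tested. *Ugt1a6a* (98.5% shared), the most abundant UGT1 gene, had 1.18 to 3.32 CPM over the 12 libraries and was not called in any contrast with all libraries in the fit. Without female knockout 2 it was lower in female knockout (-0.75, adjusted p = 0.049). *Ugt1a5* and *Ugt1a7c* were not called either with all libraries; without female knockout 2 the interaction described below was called for *Ugt1a7c* (adjusted p = 0.033).

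*Ugt8a*, which makes galactosylceramide, a major lipid of myelin, was lower in males in both genotypes. Wild-type levels were 7.86, 8.28 and 12 CPM in females and 4.11, 5.64 and 4.65 in males (-0.96 ± 0.265). Knockout levels were 5.27, 7.07 and 4.70 CPM in females and 4.20, 1.83 and 3.20 in males (-0.89 ± 0.270). Both calls were lost without the most extreme library of either side: without female wild type 3 or male wild type 1 (adjusted p of 0.051 and 0.055) in wild type, and without female knockout 2 or male knockout 2 (0.093 and 0.066) in knockout. The 6 markers of myelinating Schwann cells summed to 25.5 to 28.4 CPM in wild-type females and 29 to 39.2 in wild-type males, with 1 of 6 called, higher in males; *Pmp2* was at the detection limit. Their part in the level of *Ugt8a* was not tested.

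Markers of several cell types also differed by sex. All 7 GCT markers were higher in males in each genotype, with a median log2 fold change of 6.48 in wild type and 5.76 in knockout. Of 8 acinar markers, 5 were lower in wild-type males (median -1.09) and 4 in knockout males (median -0.80). Another, *Smr3a*, was called higher in knockout males on male knockout 2 alone. Of 6 myoepithelial and basal markers 4 were higher and 1 lower in wild-type males, and 5 were higher in knockout males. Of 4 endothelial markers 4 were lower in wild-type and 3 in knockout males. Of 6 adipocyte markers 5 were lower in wild-type males (median -4.33) and 4 higher in knockout males (median 3.29), and of 5 macrophage markers 3 were lower and 3 higher in the same order. In bulk tissue, fewer cells of a type and less RNA per cell cannot be told apart, and the part of any of these cell types in the member differences was not tested.

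**Figure D3:**
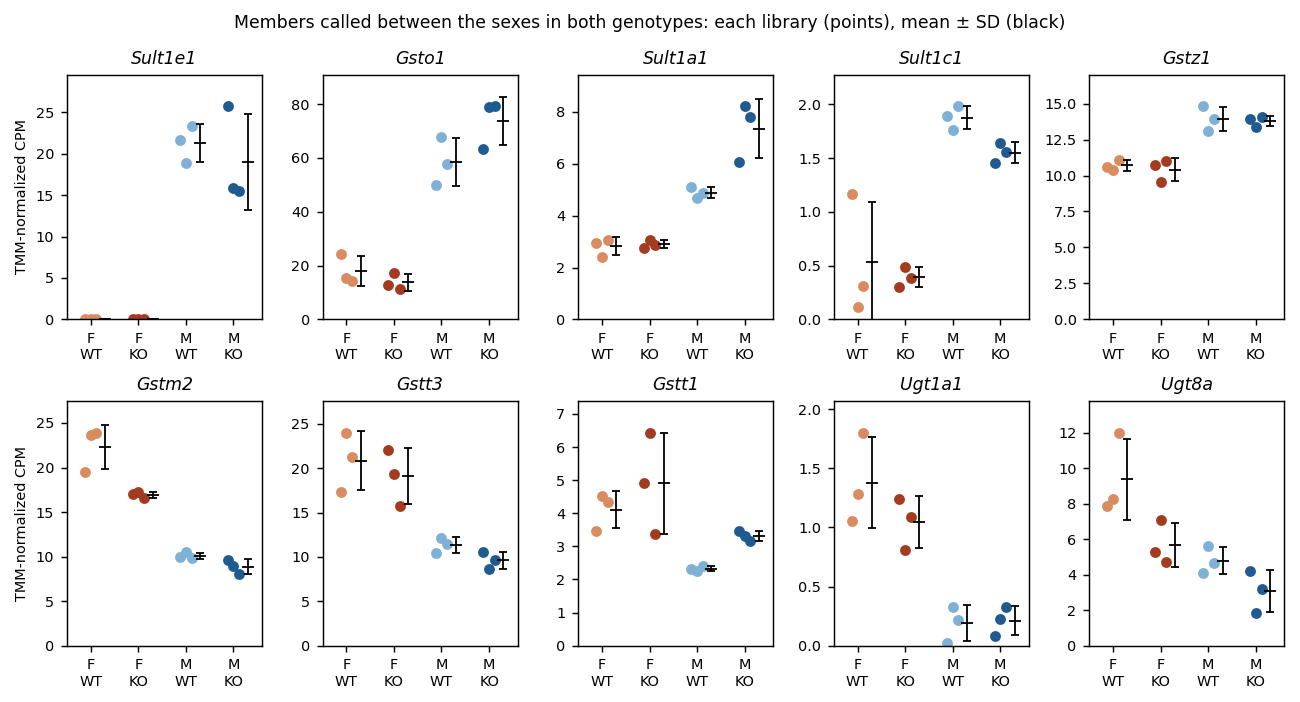
CPM of the 10 members called between the sexes in both genotypes, with each library as a point, and the mean ± SD of 3 mice in black to the right (an SD bar reaching below 0 is cropped); each panel has its own scale from 0. *Sult1e1* lies at or under 0.0429 CPM in the 6 female libraries and between 15.5 and 25.7 CPM in the 6 male ones, and only *Gstt1* in knockout has overlapping sexes.

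Promoter sequences are shown for 4 members that differed between the sexes in both genotypes: *Sult1e1* and *Gsto1*, higher in males, and *Gstm2* and *Ugt1a1*, lower in males. Each runs from 250 bases before to 50 after the start of the canonical transcript (Gencode M39, GRCm39). Motifs were searched on both strands: TGACNNNGC, the core of the antioxidant response element bound by NRF2, and AGAACA, one arm of the response element shared by the androgen and glucocorticoid receptors, whose full palindrome, AGAACA followed after 3 bases by the same arm on the other strand, was searched as well. Capitals mark a match, and TGTTCT is the arm on the other strand.
Sult1e1, chr5:87739412-87739711, minus strand: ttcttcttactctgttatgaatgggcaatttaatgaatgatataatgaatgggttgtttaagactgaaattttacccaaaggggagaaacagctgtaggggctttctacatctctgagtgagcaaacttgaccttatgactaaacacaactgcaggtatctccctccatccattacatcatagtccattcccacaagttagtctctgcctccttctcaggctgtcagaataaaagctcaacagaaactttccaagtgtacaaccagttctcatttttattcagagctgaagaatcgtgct
Gsto1, chr19:47842436-47842735, plus strand: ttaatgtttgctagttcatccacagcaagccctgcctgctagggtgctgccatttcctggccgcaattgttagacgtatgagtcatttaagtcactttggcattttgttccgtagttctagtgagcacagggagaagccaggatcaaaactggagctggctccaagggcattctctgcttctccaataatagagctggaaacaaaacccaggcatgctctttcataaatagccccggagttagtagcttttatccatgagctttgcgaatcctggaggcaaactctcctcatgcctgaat
Gstm2, chr3:107893736-107894035, minus strand: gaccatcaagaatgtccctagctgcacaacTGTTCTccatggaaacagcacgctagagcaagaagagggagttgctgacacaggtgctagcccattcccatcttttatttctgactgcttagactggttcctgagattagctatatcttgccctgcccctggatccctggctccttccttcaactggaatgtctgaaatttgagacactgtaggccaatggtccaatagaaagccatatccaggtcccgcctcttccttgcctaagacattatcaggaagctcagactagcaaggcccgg
Ugt1a1, chr1:88139429-88139728, plus strand: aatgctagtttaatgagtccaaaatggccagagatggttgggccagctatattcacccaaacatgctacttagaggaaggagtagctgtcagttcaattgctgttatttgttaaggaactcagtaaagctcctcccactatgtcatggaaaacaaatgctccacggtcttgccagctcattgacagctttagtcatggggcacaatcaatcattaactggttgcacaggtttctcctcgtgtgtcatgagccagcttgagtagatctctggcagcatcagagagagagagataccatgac

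The arm AGAACA was found in 16 of the 67 member promoters (23.9%), against 16.9% of all 21599 promoters of protein-coding genes. Of the 10 members called by sex in both genotypes, *Gstm2*, *Sult1a1* and *Sult1c1* had it, in *Gstm2* from position -220 and in *Sult1a1* from positions -187 and -9. The letters were not in the windows of *Sult1e1*, *Gsto1* or *Ugt1a1*. The full palindrome was in 0 of the 21599 promoters. TGACNNNGC was in 2 member promoters, *Gsta3* and *Gstm5* (2.99%), against 12.5% of all. A match describes the letters and says nothing of binding.

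In female knockout 6 of the 27 tested members were called (22.2%), all lower than in female wild type. Over all 17893 genes, 36.9% were called in this contrast and 19.3% were lower, so the members' share of calls was below that of all genes, and their share of lower calls, also 22.2%, was close to it. The 6 were *Gstm5*, *Gstk1*, *Gstp1*, *Gstm2*, *Gsta2* and *Ugt8a*. The median log2 fold change was -0.37 over the members, 20 of 27 of which had a negative value, and 0.03 over all genes. With no low-count filter 8 members were called, 6 lower and 2 higher, as were 6225 of 30910 genes. The 2 higher ones, *Sult6b2* and *Ugt2b34*, had counts in no female library but female knockout 2. With the filter but without female knockout 2, the library with intestinal RNA, 9 members were called, all lower, as were 6428 of 18397 genes in either direction. *Gstm4* (-0.75), *Gsto1* (-0.61) and *Ugt1a6a* (-0.75) were added, and the median was -0.55 over the members and -0.03 over all genes.

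*Gstm5*, a mu class GST, had 5.27, 6.80 and 5.97 CPM in female wild type and 2.70, 3.11 and 3.28 in female knockout. The groups did not overlap, and the log2 fold change was -0.99 ± 0.148 (adjusted p = 4.9e-04). *Gstk1*, the kappa class GST of mitochondria and peroxisomes, had 5.43, 9.27 and 10.8 CPM against 5.09, 3.66 and 4.29, with no overlap and female wild type 1 close to the knockout (-0.97 ± 0.217, adjusted p = 0.0043). *Gstp1*, the pi class GST, had 17.3, 15.2 and 12 CPM against 10.7, 9.82 and 8.17 (-0.64 ± 0.158, adjusted p = 0.0075). Of its 31-base words 61.1% occur in *Gstp2*, which had 1 to 34 counts a library, and reads could be split between them. *Gstm2* fell by 0.40 (-0.40 ± 0.102) from the levels given above to 16.6 to 17.2 CPM.

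*Gsta2*, an alpha class GST, rests on few reads. It had 12, 1 and 3 counts in female wild type and 0 in each female knockout library, so its mean level was at least 1.91-fold lower in knockout (adjusted p = 0.0089). That bound rests on female wild type 1: the other female libraries were all at or under 3 counts, where no fold can be given, and in a fit of the females alone the gene had too few counts to be tested. Of its 31-base words 72.7% occur in other genes, most in *Gsta5*. *Ugt8a* was lower in female knockout by 0.72 on the log2 scale (-0.72 ± 0.265, adjusted p = 0.049). That call was lost without female wild type 3, female knockout 1 or 3, any male wild-type library or male knockout 3 (adjusted p of 0.053 to 0.16), and with the replicate number as a block (adjusted p = 0.077). Without the 2 libraries rich in *Muc19*, calls over all genes fell from 6611 of 17893 to 4455 of 18355. Of the 6 members 3 were then called, *Gstm5*, *Gstk1* and *Gsta2*, and the values of *Gstm2*, *Gstp1* and *Ugt8a* were -0.39, -0.54 and -0.60.

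Transcript length and cell type markers also moved in this contrast. Among members whose canonical transcript is under 1500 bases, the median log2 fold change was -0.54 and 5 of 12 were lower; among longer members it was -0.13 and 1 of 15 was lower. Over all protein-coding genes tested, those under 1500 bases had a median of -0.33 and 33.4% lower, and longer genes -0.05 and 22.6% lower. Acinar markers summed to 49334 to 58026 CPM in female wild type and 30117 to 37294 in female knockout, with 3 of 8 lower. *Prol1* alone gave 38175 to 42583 and 24200 to 30560 CPM of these sums, and was not called (-0.54 ± 0.223, adjusted p = 0.077). Among other lists, 3 of 6 myoepithelial and basal, 2 of 6 ductal, 2 of 5 macrophage and 1 of 4 endothelial markers were lower. Higher were 2 of 7 GCT markers and 2 of 5 tested Schwann cell markers. The 6 adipocyte markers summed to 3.37 to 43.8 CPM in female wild type and 2.4 to 5.17 in female knockout, with 2 of 6 lower. The adipocyte sums were 173, 259 and 1681 counts in female wild type and 154, 308 and 112 in knockout, so the groups overlap, and female wild type 3 lies far above the others. The part of transcript length or of these cell types in the members' fall was not tested.

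In males 0 of the 27 members were called between knockout and wild type by edgeR, where 0.235% of all genes were called, 0.101% higher and 0.134% lower. With an unadjusted p under 0.05 there were 5 members, and 2056 of all genes. DESeq2 called 1 member, *Sult1a1*, higher in knockout (0.61, adjusted p = 0.011), and 392 of 30910 genes, against 42 of 17893 by edgeR. In edgeR *Sult1a1* had 6.07 to 8.21 CPM in male knockout and 4.67 to 5.11 in male wild type, with no overlap, and the smallest adjusted p of the members (0.59 ± 0.141, adjusted p = 0.12). Without male knockout 1 it was called by edgeR too (0.71, adjusted p = 0.019), as were 635 of 18575 genes. *Sult1e1* had 15.5 to 25.7 CPM in knockout and 18.9 to 23.4 CPM in wild-type males, which overlap (-0.16 ± 0.187). The median over the members was -0.04, as over all genes.

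**Figure D4:**
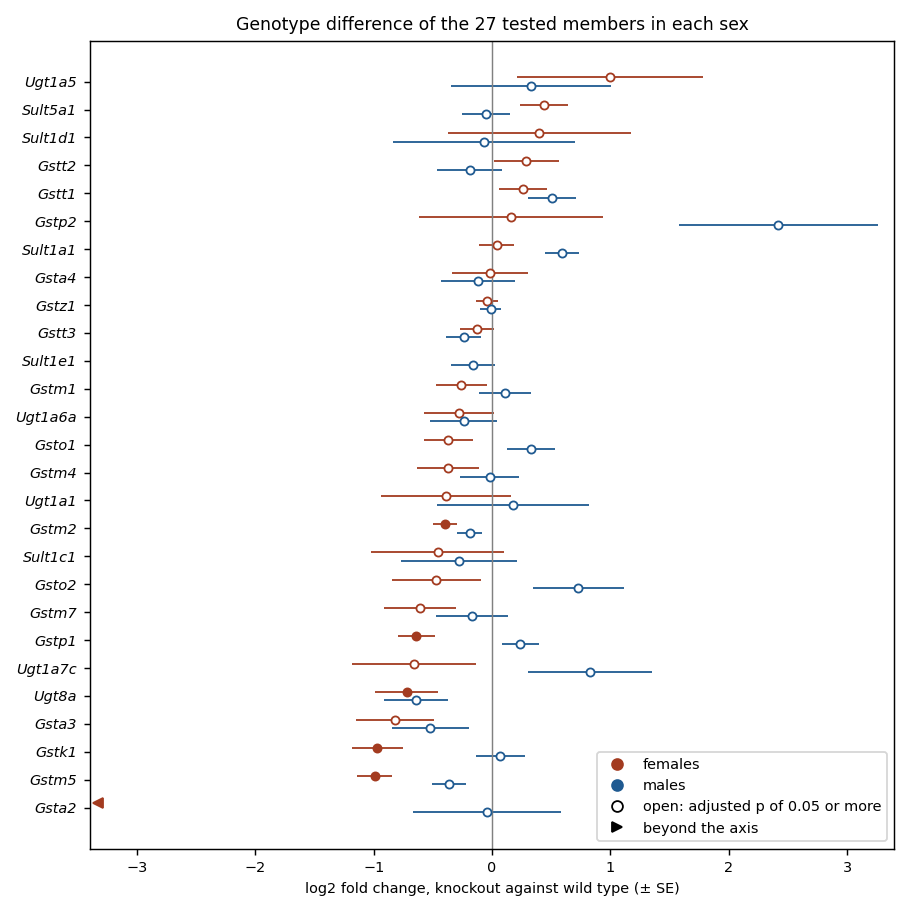
Log2 fold change of knockout against wild type for the 27 tested members in females (red) and males (blue), with bars of 1 SE; filled symbols are called, and the triangle is *Gsta2* in females, beyond the axis because the knockout had a count of 0. *Sult1e1* in females is not drawn, since both groups were at the detection limit. The 6 filled symbols are all red and all lie below 0.

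The difference between the genotype effects of the sexes was tested as an interaction, which is also the difference between the sex effects of the genotypes. It was called for 4 of the 27 members (14.8%), all with a higher value in males, against 25.7% of all genes, 12.4% higher and 13.4% lower. The 4 were *Gstp1*, *Gstk1*, *Gstm5* and *Gsta2*. Of these, *Gsta2* passed the low-count filter only through the male libraries, with 9 to 19 counts there. *Gstp1* was lower in female knockout (-0.64) and had 0.24 ± 0.154 in males, so that knockout males, at 15.7, 17.9 and 18.1 CPM, lay above knockout females, at 8.17 to 10.7 (0.85 ± 0.157), while wild-type males at 12 to 16.7 overlapped wild-type females at 12 to 17.3. *Gstk1* behaved alike, with 8.61 to 10.9 CPM in knockout males and 3.66 to 5.09 in knockout females (1.12 ± 0.215) and overlapping sexes in wild type (0.08 ± 0.210). *Gsta2* had 18, 12 and 9 counts in male knockout, at least 3.59-fold above the female knockout libraries at 0. The call of *Gstm5* was lost in 12 of 23 alternatives. With the authors' own normalization factors the call of *Gstp1* was lost (0.61, adjusted p = 0.11). *Sult1a1* missed the threshold (0.55 ± 0.205, adjusted p = 0.065) but was called in 6 alternatives, at 0.60 to 0.76 and an adjusted p of 0.024 to 0.049, among them DESeq2, the authors' factors and leaving out male knockout 1 or female wild type 2. Without male wild type 1, or without both libraries that held intestinal or brain RNA, 1 of 4 was called, *Gstp1*. Over all alternatives the value was 0.89 to 1.37 for *Gstk1*, 0.54 to 0.86 for *Gstm5* and 0.61 to 1.08 for *Gstp1*. These ranges include the alternatives in which a call was lost. Without male wild type 3 or male knockout 2 alone 3 were called, without female knockout 2 there were 6, and without both libraries rich in *Muc19* 0 were called by edgeR. Calls over all genes moved too, from 4604 of 17893 to 2384 of 18518 without male wild type 1. They were 2898 of 18444 without male wild type 3, 3190 of 18538 without male knockout 2 and 5141 of 18397 without female knockout 2. Without the libraries with intestinal or brain RNA they were 3106 of 18224, and without those rich in *Muc19* 1140 of 18355. All 4 have a transcript under 1500 bases: of the members below that length 4 of 12 were called (median 0.59), and of the longer ones 0 of 15 (median 0.05). Of all protein-coding genes tested, 24% of those under 1500 bases were called with a higher value in males (median 0.41), and 14.2% of longer ones (median 0.06). The 6 adipocyte markers were all called in the same direction (median 7.91), and summed to 1.45 to 1.61 CPM in males of the wild type but 2.82 to 34 CPM in male knockout. The part of length or of adipocytes in the interaction was not tested.

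Other members called by sex in 1 genotype only were not shown to differ between the genotypes. *Gstm1* was lower in wild-type males (-0.61 ± 0.217, adjusted p = 0.043), at 16.6 to 17.9 CPM against 37.8, 20.1 and 20.4 in females. Without female wild type 1, the highest library, the log2 fold change was -0.28 and the adjusted p 0.17. Leaving out any of the 3 male wild-type libraries, male knockout 1 or male knockout 2 also ended the call (adjusted p of 0.051 to 0.11). *Gstm4* was higher in knockout males by 0.74 ± 0.259 and *Gstt2* lower by 1.07 (-1.07 ± 0.276). With the authors' own normalization factors the difference of *Gstt2* was -0.75 and not called (adjusted p = 0.093). The call of *Gstm4* was lost without female knockout 1 or 3 or male knockout 1 or 3 (adjusted p of 0.058 to 0.11). The alpha class genes *Gsta3* and *Gsta4*, the latter a conjugator of the lipid peroxidation product 4-hydroxynonenal, were called in no contrast by edgeR with all libraries, and neither were *Gstm7* and *Gstp2*. *Gsta3* was called lower in female knockout by DESeq2 (-0.85, adjusted p = 0.043) and by edgeR without female wild type 3 (-1.10, adjusted p = 0.027), and *Gstm7* by edgeR without female wild type 1 (-0.87, adjusted p = 0.042).

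**Figure D5:**
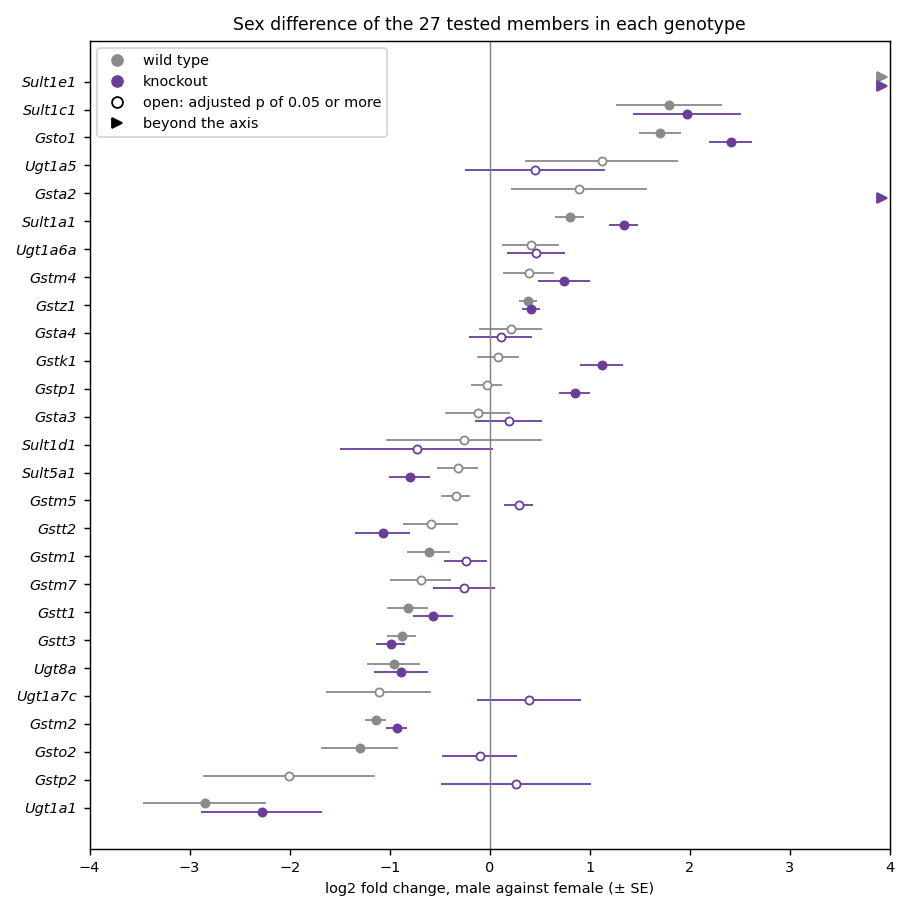
Log2 fold change of males against females for the 27 tested members in wild type (grey) and knockout (purple), with bars of 1 SE; filled symbols are called, and triangles lie beyond the axis (*Sult1e1* in both genotypes, *Gsta2* in knockout, each with females at or under the detection limit in that contrast). *Sult1c1*, *Gsto1*, *Sult1a1* and *Gstz1* lie above 0 in both genotypes, and *Ugt1a1*, *Gstm2*, *Ugt8a*, *Gstt3* and *Gstt1* below 0 in both.

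The other genes of the pathway were counted in lists, to be read against the shares of all genes given above: 20.5% higher and 16% lower by sex in wild type, 23.2% and 20.3% by sex in knockout, and 17.6% and 19.3% in female knockout. Of 14 genes of glutathione supply, 7 were higher and 4 lower in wild-type males (median 0.29), and in knockout males 7 were higher and 0 lower (median 0.84). *Gclc*, the catalytic subunit of the enzyme that limits glutathione synthesis, was higher in males by 2.13 ± 0.236 in wild type and 2.11 ± 0.237 in knockout, and *Gpx1*, a glutathione peroxidase, by 1.21 ± 0.129 and 2.10 ± 0.133. In female knockout 6 of the 14 were lower and 0 higher (median -0.52), among them *Gpx4* (-0.85 ± 0.125), *Gpx1* (-0.81 ± 0.129) and *Gclm* (-0.70 ± 0.129).

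Of 10 tested genes that supply cofactors for glucuronidation and sulfation, 6 were lower in female knockout and 0 higher (median -0.65). *Slc26a2*, a sulfate transporter, fell by 0.91 (-0.91 ± 0.0989), *Bpnt2*, which clears the product of sulfation, by 0.99 (-0.99 ± 0.151), and *Papss1*, a PAPS synthase, by 0.65 (-0.65 ± 0.106). In wild-type males 1 was higher, *Papss1* (0.63 ± 0.105), and 5 were lower, *Bpnt2* (-1.20 ± 0.151) and *Ugp2* (-0.91 ± 0.142) among them. In knockout males *Papss1* (1.30 ± 0.107) and *Bpnt1* (0.29 ± 0.0949) were higher.

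Of 12 NRF2-regulated and redox enzymes, 5 were higher and 3 lower in wild-type males, 6 higher and 1 lower in knockout males, and 5 lower in female knockout. *G6pdx*, which supplies NADPH, was higher in males by 1.33 ± 0.182 and 1.79 ± 0.184, and *Txnrd1*, thioredoxin reductase, was lower in female knockout (-0.72 ± 0.102). Of the 11 tested other conjugating enzymes, 1 was higher and 2 lower in wild-type males, with *As3mt*, arsenite methyltransferase, at 1.49 ± 0.160 and *Hnmt*, histamine methyltransferase, at -1.57 ± 0.210; 3 were higher and 2 lower in knockout males, and 5 were lower in female knockout. Of 7 tested efflux transporters, *Abcc3* was lower in wild-type males (-1.52 ± 0.343), *Abcc3* and *Abcc4* were lower in knockout males, and *Abcc5* was higher (1.12 ± 0.243) and *Abcg2* lower (-0.70 ± 0.238) in female knockout. Of 6 deconjugating enzymes, 1 was higher and 1 lower in wild-type males, 2 were higher in knockout males, and 2, *Arsb* and *Gusb*, were lower in female knockout. *Sts*, steroid sulfatase, which reverses sulfation of estrogens, was higher in males by 1.29 ± 0.312 and 0.90 ± 0.304, and *Arsb*, a lysosomal sulfatase, was lower in wild-type males (-0.76 ± 0.110).

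Of 9 tested regulators, 5 were higher in wild-type males and 0 lower, 7 higher and 1 lower in knockout males, and 1 higher and 4 lower in female knockout. *Nr1i2*, the xenobiotic receptor PXR, had 11, 5 and 4 counts in female wild type, 34, 25 and 30 in female knockout, 231, 257 and 277 in male wild type and 219, 174 and 217 in male knockout. Its groups did not overlap in the female genotype contrast (1.96 ± 0.322) or in either sex contrast (4.58 ± 0.303 in wild type, 2.49 ± 0.254 in knockout). *Nfe2l2*, which encodes NRF2, was higher in males by 0.27 ± 0.0901 and 0.72 ± 0.0906 and lower in female knockout (-0.41 ± 0.0906). In the male genotype contrast 0 genes of the 7 lists were called by edgeR.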

How the data were processed

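SMG tissue of 12 mice was sequenced as stranded, ribosomal RNA-depleted libraries; the labels name polyadenylated RNA instead. The authors quantified transcripts with Salmon 1.10.1 against Gencode M35 on GRCm39 and deposited estimated counts per gene. They also deposited a normalized signal, in which each count was divided by a factor for the gene and library; how the factors were made is not given in the sources used here, and they served only as an alternative. Groups came from the labels.

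Estimated counts were rounded and analysed with edgeR 4.0.16 in R 4.3.3: filterByExpr kept 17893 genes, TMM factors were applied, and a single quasi-likelihood model (1 mean for each group, 12 libraries) gave 5 contrasts, each with Benjamini-Hochberg adjustment. SEs come from the F statistic, as |log2 fold change| over its square root. Where no library of a group exceeds 3 counts, a fold against it is a lower bound. Levels per kb use the canonical transcript of Gencode M39. Each gene's identity to others was checked with 31-base words of all annotated transcripts. The steps were tested on simulated data.

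Members and gene lists were chosen with earlier results of these data known; the lists for intestine and brain were added after seeing the data. Named were members called in any contrast, the most abundant 2 of each family, undetected members, and up to 4 genes of each list with the smallest adjusted p in a contrast; low members and genes of another tissue were named after their values were seen. Alternatives were RLE and upper-quartile normalization, TMM on protein-coding genes, library sizes without the 20 most abundant genes, the authors' factors, no filter, at least 10 counts in every library, only the groups compared, a replicate block, each library left out, and DESeq2 1.42.0. Figures were drawn with matplotlib 3.10.9 in Python 3.11.15.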

Additional observations from a re-analysis of the deposited data

Results flagged for a closer look

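The genotype effect was called as different between the sexes for 4 members, by the interaction test of edgeR with all libraries. Effects are log2 values of knockout against wild type, in males minus in females. The difference was 0.88 for *Gstp1* (adjusted p = 0.015), 1.03 for *Gstk1* (adjusted p = 0.026) and 0.63 for *Gstm5* (adjusted p = 0.040). For *Gsta2* the fitted difference was 5.72 (adjusted p = 0.026); it rests on a count of 0 in the 3 female knockout libraries, depends on the prior count and is no measure of size. With the authors' own normalization factors the value of *Gstp1* was 0.61 (adjusted p = 0.11). The call of *Gstm5* was lost in 12 of 23 alternatives, that of *Gstk1* in 3 of 23 and that of *Gsta2* in 3 of 22. Without both libraries rich in *Muc19* all 4 calls were lost. All 4 were lower in female knockout, and none was called in males. The 4 are 14.8% of the 27 tested members, and of all 17893 genes 25.7% were called in the same test.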

How the results depend on the processing

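Of 38 calls of a member in a contrast, 21 were kept under every alternative, 17 were lost under at least 1 and 0 changed sign. Leaving out each library gave 5 to 9 called members in female knockout against wild type (6 with all libraries), 0 to 1 in males (0), 1 to 6 in the interaction (4), 10 to 13 for sex in wild type (12) and 14 to 16 for sex in knockout (16). In females, 3 members were called without both libraries high in *Muc19*. In males, DESeq2 called 1, as did edgeR without male knockout 1. In the interaction, 1 was called without male wild type 1, 1 without both libraries with intestinal or brain RNA and 0 without both libraries high in *Muc19*. These 2 joint omissions were chosen after seeing the data. With the replicate number as a block, 5, 0, 4, 12 and 16 members were called; *Ugt8a* in females was the call lost. Libraries with the same number correlated at -0.135 to 0.266 in their deviations from the group means. With 3 libraries in each group, these values cannot decide whether the numbers pair mice, and the labels name no pairing. Upper-quartile normalization moved the median of all genes from 0.03 to 0.13 in the female genotype contrast and from -0.02 to -0.18 for sex in knockout; the causes were not tested. Under the filter of at least 10 counts in every library, the called members *Sult1e1*, *Gsta2*, *Ugt1a1*, *Sult1c1* and *Gsto2* were not tested. Depth limits what can be said of the 15 low members.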
